A study of Mus musculus with 477 samples.

Results

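The 10 regulators and surface proteins that mark luminal progenitors and alveolar cells of the mouse mammary gland were followed through single cells of luminal epithelium and of mammary tumors. They are Elf5, Ehf, Stat5a, Stat5b, Gata3, Sox10, Sox9, Kit, Aldh1a3 and Cd14, 10 of the 21004 genes in the count table, a list given by name. The table holds 477 cells, captured on Fluidigm C1 chips, from 11 mice in 10 groups. Every mouse carried MMTV-Cre, which drives recombination in mammary epithelium but not in it alone, on a mixed C57BL/6 and 129/Sv background. Genotype Br is MMTV-Cre; Brca1 fl/fl, genotype 53 is MMTV-Cre; Trp53 fl/+ with no floxed Brca1 allele in its label, and genotype Br53 carries both the floxed Brca1 alleles and the floxed Trp53 allele. The paper's methods give Trp53 fl/+ for these strains, whereas its flow cytometry legend gives Trp53 fl/fl for the 53 and Br53 genotypes. Luminal cells (L) came from female mice of 3-4 months, either virgin (v) or at day 12.5 of pregnancy (p). They were sorted as DAPI- CD24Hi CD29Lo mGFP+ cells, mGFP coming from the ROSA mT/mG reporter. Tumor cells (T) were sorted as DAPI- CD24+ cells, without a reporter gate. The paper puts tumor formation in Br mice at a later age and reports that the Trp53 mutation speeds it. The ages of these tumor mice are not given in the text used here, so tumor and age cannot be told apart. The luminal mice were vBrL, vBr53L, v53L, pBrL-1, pBrL-2, pBr53L and p53L, and the tumors were BrT1, BrT2, Br53T1 and Br53T2. Only pBrL held 2 mice, told apart by chip, so that neighbouring groups in an order of levels cannot be separated by a spread of their own.

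In the mammary gland, luminal progenitors give rise to alveolar cells, which make milk, and they are the proposed source of many BRCA1-deficient tumors. Prolactin acts through its receptor and the kinase Jak2 to activate Stat5a and Stat5b, which turn on milk genes together with the ETS factor Elf5. Gata3 maintains luminal identity, Ehf is an ETS factor of epithelial cells, and Sox9 and Sox10 are SOX factors linked to progenitor states. Kit is the receptor of stem cell factor, Aldh1a3 makes retinoic acid, and Cd14 is the lipopolysaccharide co-receptor. Kit and Cd14 are used to sort luminal progenitors, but Kit is also made by mast cells, Cd14 by myeloid cells and Sox10 by Schwann cells and melanocytes.

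Elf5 and Ehf lie 108409 bases apart on chromosome 2, with A930006I01Rik, Gm37220 and BC016548 between them. In the mm10 build, Elf5 spans chr2:103411688-103450989 on the plus strand and Ehf chr2:103263433-103303278 on the minus strand. Stat5b (chr11:100780731-100850724, minus) and Stat5a (chr11:100859351-100885169, plus) lie 8626 bases apart with no gene between them. Gata3 lies at chr2:9857078-9890034, Kit at chr5:75574916-75656722, Aldh1a3 at chr7:66390890-66427517, Sox10 at chr15:79154908-79165240 and Sox9 at chr11:112782224-112787760. RefSeq promoter windows of 300 bases (250 before to 50 after a start site, GRCm38.p6) were matched for 5 of the 10 genes, Elf5, Kit, Stat5a, Stat5b and Gata3, in 9 windows. The windows were searched on both strands for the STAT site TTCNNNGAA, the ETS core CCGGAA, the GATA site AGATAA and the SOX site ACAAAG, found in 8.298%, 14.9%, 11.18% and 18.71% of 32851 promoters of that length. Matches were an ETS core in Gata3, 203 bases before the start site, and another in the first Stat5b window, 133 bases before it. The windows of Elf5, Kit and Stat5a held none of these letters. The 2 Elf5 windows are shown because Elf5 had the largest differences between groups of mice and has 2 annotated start regions, and the Gata3 and Stat5b windows because they held the match, in capitals on the strand printed (TTCCGG, the reverse of the core).
Elf5 at chr2:103411848-103412147, plus strand: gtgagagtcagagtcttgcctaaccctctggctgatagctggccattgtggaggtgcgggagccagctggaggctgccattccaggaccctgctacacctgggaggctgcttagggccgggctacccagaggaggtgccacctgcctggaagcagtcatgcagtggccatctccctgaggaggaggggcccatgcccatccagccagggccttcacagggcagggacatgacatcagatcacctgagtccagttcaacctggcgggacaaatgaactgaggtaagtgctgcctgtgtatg
Elf5 at chr2:103423818-103424117, plus strand: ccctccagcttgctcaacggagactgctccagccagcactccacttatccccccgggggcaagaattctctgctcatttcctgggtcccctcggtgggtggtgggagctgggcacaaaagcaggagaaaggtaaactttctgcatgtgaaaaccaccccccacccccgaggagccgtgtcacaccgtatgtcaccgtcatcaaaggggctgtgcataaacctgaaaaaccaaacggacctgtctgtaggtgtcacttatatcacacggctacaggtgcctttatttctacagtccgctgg
Gata3 at chr2:9878551-9878850, minus strand: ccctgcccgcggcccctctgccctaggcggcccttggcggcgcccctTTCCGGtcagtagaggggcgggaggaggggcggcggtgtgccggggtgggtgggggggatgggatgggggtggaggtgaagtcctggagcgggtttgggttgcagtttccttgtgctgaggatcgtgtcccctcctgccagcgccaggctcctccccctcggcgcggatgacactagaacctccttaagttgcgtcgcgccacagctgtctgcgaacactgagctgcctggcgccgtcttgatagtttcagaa
Stat5b at chr11:100850532-100850831, minus strand: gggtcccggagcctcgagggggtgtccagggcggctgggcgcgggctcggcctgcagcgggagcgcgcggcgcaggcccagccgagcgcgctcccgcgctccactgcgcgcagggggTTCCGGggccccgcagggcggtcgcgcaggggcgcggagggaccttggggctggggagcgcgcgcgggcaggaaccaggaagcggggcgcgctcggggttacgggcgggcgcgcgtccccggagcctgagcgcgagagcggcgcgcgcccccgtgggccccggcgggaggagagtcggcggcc

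The mice had between 40338926 and 115827852 counted reads in 30 to 71 cells each, with a median of 1044320 to 2173740 reads per cell. The counts carry no molecular identifiers, so intervals and floors given for them cover counting error only. Summed CPM of 6 luminal markers was 8660 to 13700 in the luminal mice and 846 to 6578 in the tumors. BrT1 stood apart: its luminal marker sum was the 846, its sum of 6 fibroblast markers was 4955 CPM, and the other tumors had 0.140 to 96.5 CPM of those markers, beside 0.117 to 712 CPM in the luminal mice. Endothelial markers summed to at most 9.62 CPM in any mouse. Some fitted tumor differences and correlations are therefore also given without BrT1. Brca1 was at 1.70 to 57.2 CPM in the 9 mice with floxed Brca1 and at 5.21 to 6.99 CPM in the 2 of genotype 53. Trp53 was at 67.2 to 243 CPM in the 6 mice with the floxed allele and at 5.05 to 515 CPM in the other 5. Counts per gene do not show the deleted exons, so these levels do not check the genotypes.

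Elf5, the ETS factor of alveolar cells, was highest in pregnant mice. Its level, in CPM (reads of the gene scaled to the counted reads of the mouse's summed cells), was 36.7, 170.2 and 5.90 in the virgin mice vBrL, vBr53L and v53L. In the pregnant mice it was 1063 (pBrL-1), 808 (pBrL-2), 456 (pBr53L) and 135 (p53L). The tumors had 9.80 (BrT2), 23.98 (Br53T1) and 72.96 CPM (Br53T2), and BrT1 had 0.0110. The 3 Brca1-deficient pregnant mice were thus the highest of all 11, p53L lay below vBr53L, and the tumors lay among or below the virgin mice. BrT1 held 1 Elf5 read, and the level in v53L, the lowest luminal mouse, was 534 times that of this read, with a 95% counting interval of 95.9 to 21109.

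Ehf had levels of 735, 339 and 127 CPM in vBrL, vBr53L and v53L. It was at 1115, 998 and 892 CPM in pBrL-1, pBrL-2 and pBr53L and at 713 in p53L. In BrT2, Br53T1 and Br53T2 it was at 400, 528 and 381 CPM, whereas BrT1 had no Ehf read. Virgin and pregnant mice overlapped only because vBrL lay just above p53L, and 3 tumors lay between the lowest and the highest luminal mouse. With the floor of 3 reads in that library, Ehf was at least 3846-fold higher in v53L than in BrT1.

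Stat5a was at 133, 85.2 and 140 CPM in vBrL, vBr53L and v53L and at 122.7, 102, 80.3 and 62.8 CPM in pBrL-1, pBrL-2, pBr53L and p53L. The tumors ranged from 12.9 (BrT1) over 23.9 (BrT2) and 44.4 (Br53T1) to 85.9 CPM (Br53T2). Only Br53T2 reached the luminal range. Stat5b was lower per length, at 24.2, 7.16 and 8.55 CPM in vBrL, vBr53L and v53L, and at 47.97, 33.01, 37.4 and 18.7 CPM in pBrL-1, pBrL-2, pBr53L and p53L. The 4 tumors lay close together for Stat5b, at 9.04 to 13.9 CPM, between vBr53L and p53L. The 2 genes share 608 exact windows of 50 bases, 8.208% of those of Stat5a and 10.98% of those of Stat5b, and Stat5a overlaps Stat3 on the other strand. The split of reads between them is therefore uncertain.

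Gata3 varied little among luminal mice, from 281 CPM in pBr53L to 485 in p53L, with 313, 327 and 305 CPM in vBrL, vBr53L and v53L and 370.3 and 362 CPM in pBrL-1 and pBrL-2. The tumors split by genotype label: BrT1 and BrT2 were at 64.4 and 17.8 CPM, and Br53T1 and Br53T2 at 429 and 355 CPM. With 2 tumors of each genotype this split was not tested. The Gata3 span overlaps Gm13256 (antisense), 4930412O13Rik on the other strand and 9230102O04Rik on the same strand, and strand use in counting is not given in the sources used here, so the Gata3 reads are uncertain to that extent.

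Sox9 ran the other way in BrT1, where it was the highest of all mice at 1750 CPM, followed by Br53T2 at 909. BrT2 and Br53T1 were at 254 and 378 CPM, within the luminal range of 225 (pBrL-2) to 563 (vBr53L). The other luminal mice had 328 CPM in vBrL, 501 in v53L, 293 in pBrL-1, 291 in pBr53L and 343 in p53L. Sox10 was at 94.7, 123.4 and 32.4 CPM in vBrL, vBr53L and v53L and at 110.5, 74.96, 76.8 and 69.3 CPM in pBrL-1, pBrL-2, pBr53L and p53L. BrT2 had the highest Sox10 level, 151 CPM, Br53T1 and Br53T2 had 106 and 60.2, and BrT1 had 27.1, of which 97.1% of reads came from 1 cell. Summed Schwann cell and melanocyte markers ranged from 3.49 to 88 CPM in the luminal mice and from 10.01 to 97.5 CPM in the tumors, most of it Mbp, and Tyrp1 was at 0 in every mouse.

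Kit was at 191, 119 and 92.4 CPM in vBrL, vBr53L and v53L and at 139, 220.3, 154 and 112 CPM in pBrL-1, pBrL-2, pBr53L and p53L. BrT2 kept a level within that range, 177 CPM, Br53T1 and Br53T2 were at 35.6 and 62.6, and BrT1 at 0.188 with 17 reads in 1 cell. Of the mast cell markers, Cpa3, Mcpt4, Cma1 and Ms4a2 were at 0 in every mouse and Tpsb2 had 0.0110 CPM in BrT1 alone.

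Cd14 was at 329, 939 and 1045 CPM in vBrL, vBr53L and v53L and at 331, 207, 317 and 661 CPM in pBrL-1, pBrL-2, pBr53L and p53L. The tumors had 47.1 (BrT1), 667 (BrT2), 477 (Br53T1) and 156 CPM (Br53T2). Summed myeloid markers reached at most 311 CPM, in pBr53L, and Ptprc, the pan-leukocyte phosphatase, was at most 25.8 CPM, in the same mouse. In v53L, with the highest Cd14, the 7 myeloid markers summed to 9.72 CPM and Lyz2, Tyrobp, Fcer1g and Adgre1 were at 0. Aldh1a3 was low in most mice, at 9.57, 62.1 and 3.15 CPM in vBrL, vBr53L and v53L, and 34.5, 14.9, 19.9 and 13.7 CPM in pBrL-1, pBrL-2, pBr53L and p53L. BrT2, Br53T2 and Br53T1 had 100.2, 79.5 and 48.1 CPM, and BrT1 had 14.9. A single cell gave 76.7% of the Aldh1a3 reads of BrT1, 80.8% of those of Br53T1 and 95.3% of those of v53L.

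**Figure D1:**
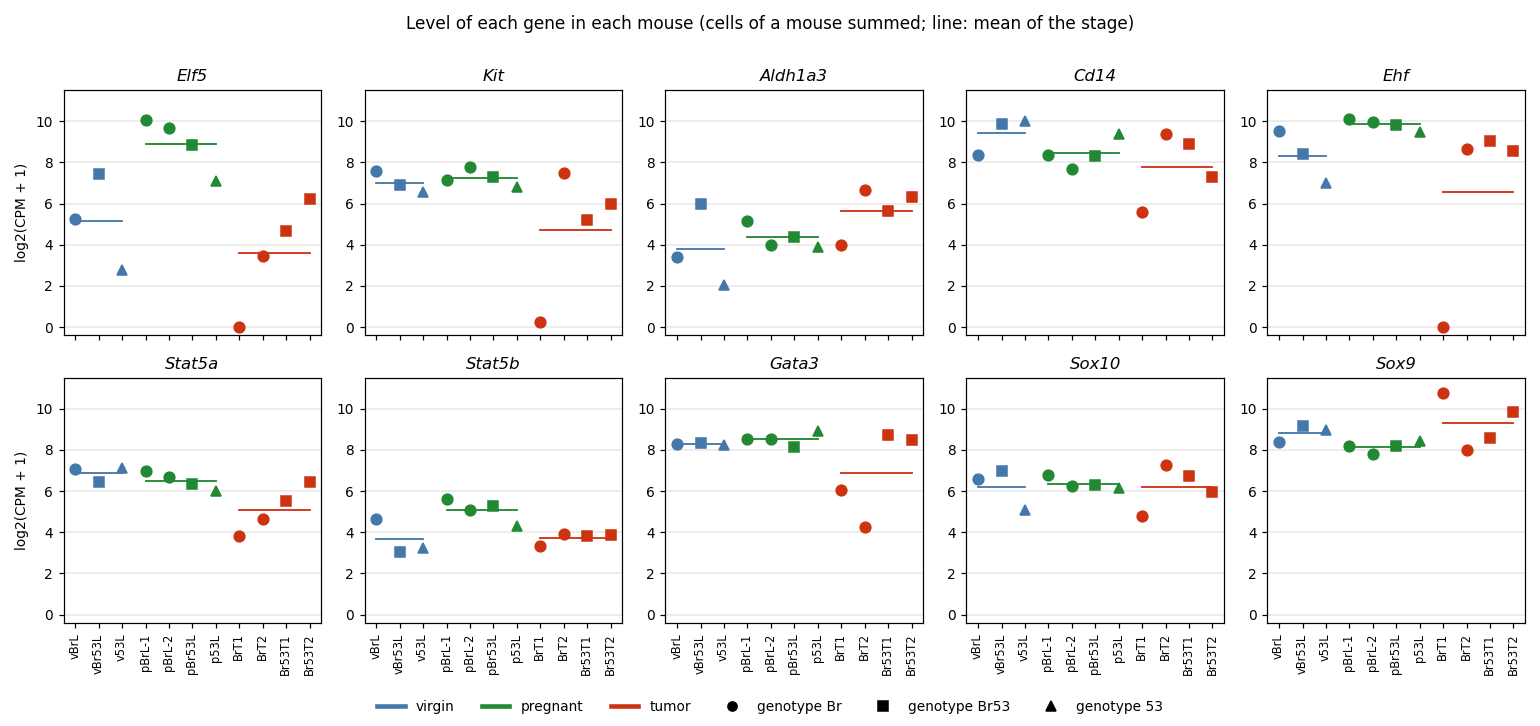
Level of each of the 10 genes, as log2(CPM + 1) of the summed cells, in each of the 11 mice, colored by stage, with symbols for genotype and a line at the mean of each stage. Elf5 ran from 0.0110 CPM in BrT1 to 1063 CPM in pBrL-1, Gata3 was low in BrT1 and BrT2 only, and Sox9 was highest in BrT1.

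Between genes, levels can be set side by side only per length of exon. As the mean of the 7 luminal mice, Cd14 led with 316 CPM per kilobase, then Ehf with 126, Sox9 with 87.9, Gata3 with 87.8 and Elf5 with 65.04. Sox10 had 27.3, Kit 16.5, Stat5a 14.5, Aldh1a3 4.89 and Stat5b 4.56 CPM per kilobase. In the 4 tumors the mean was highest for Sox9, 199, followed by Cd14 with 194, and lowest for Stat5b, 2.22. The order of Sox9 and Cd14 differed between tumors. Sox9 was above Cd14 in BrT1 (423 against 27.2 CPM per kilobase) and in Br53T2 (219.9 against 89.987). It was below Cd14 in BrT2 (61.4 against 385) and in Br53T1 (91.5 against 275).

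The share of cells with a read showed which levels were carried by most cells. After each cell was thinned to 100000 reads, Elf5 was read in 90.1%, 92.1%, 92.5% and 88.9% of the cells of pBrL-1, pBrL-2, pBr53L and p53L. It was read in 51.4%, 48.7% and 20.0% of the cells of vBrL, vBr53L and v53L. Among tumors the Elf5 share was 37.8% in BrT2, 56.7% in Br53T1, 19.6% in Br53T2 and 0 of 47 cells in BrT1, which allows a share of up to 6.38% by the floor of 3 cells and has an upper exact 95% binomial (Clopper-Pearson) bound of 7.55%. Both limits hold for Kit and Ehf in BrT1 as well.

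Ehf was read in 98.6% to 100.0% of cells of the 4 pregnant mice and in 94.3%, 74.4% and 52.5% of those of vBrL, vBr53L and v53L. Gata3 was read in 87.5% to 97.2% of cells of every luminal mouse, in 100.0% and 90.2% of those of Br53T1 and Br53T2, and in 74.5% and 35.1% of those of BrT1 and BrT2. In BrT1 the Gata3 level was low while most cells held a read, with a median of 25.7 CPM over cells against 362 CPM in Br53T1. Without thinning, the Elf5 shares of the stages lay closer: 77.1%, 69.2% and 35% of cells of vBrL, vBr53L and v53L held a read and 94.4% to 98.6% of the pregnant cells did. A thinned cell held reads of a median of 7 to 8 of the 10 genes in pregnant mice, 7, 6 and 4 in vBrL, vBr53L and v53L, 6 in BrT2 and Br53T1, 4 in Br53T2 and 3 in BrT1.

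**Figure D2:**
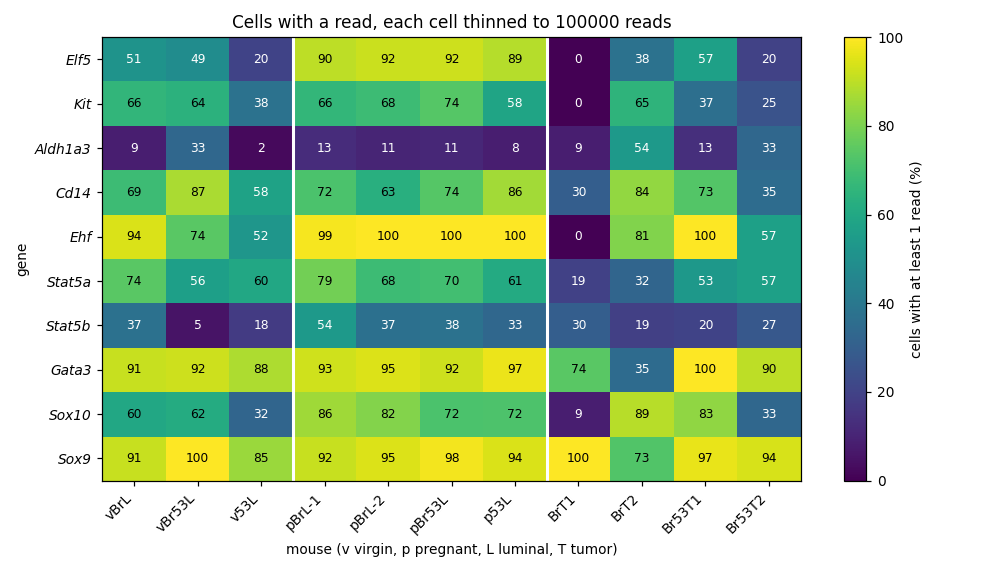
Percentage of cells with at least 1 read of each gene in each mouse, each cell thinned to 100000 reads. Elf5 was read in 88.9% to 92.5% of pregnant luminal cells, and Elf5, Kit and Ehf in no cell of BrT1.

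To ask what tumors keep of the luminal levels, each tumor was set against the range of the 7 luminal mice. BrT1 lay below that range for 7 of the 10 genes (Elf5, Kit, Cd14, Ehf, Stat5a, Gata3 and Sox10), while 15.3% of 13234 genes did so, and above it for Sox9, as did 26.5% of genes. BrT2 lay below it for Stat5a and Gata3 (15.2% of genes) and above it for Aldh1a3 and Sox10 (19.7% of genes). Br53T1 lay below it for Kit and Stat5a (11.1% of genes) and above it for none (23.7% of genes). Br53T2 lay below it for Kit and Cd14 (8.06% of genes) and above it for Aldh1a3 and Sox9 (22.3% of genes). Within the luminal range lay 6 of the 10 genes in BrT2, 8 in Br53T1 and 6 in Br53T2, close to the shares of all genes, 65.1%, 65.2% and 69.6%. In BrT1 it was 2 of 10, with 58.2% of all genes. Ehf, Elf5 and Stat5b were within it in BrT2, Br53T1 and Br53T2. For Elf5 in BrT2 and Br53T1 this rested on v53L alone (5.90 CPM), since both lay below the other 6 luminal mice, of which vBrL was lowest at 36.7 CPM. Sox10 in Br53T2 was within the range through v53L alone, Aldh1a3 in Br53T1 through vBr53L, Gata3 in Br53T1 through p53L and Sox9 in BrT2 through pBrL-2, so the counts of genes within the range depend on single mice. The placement of every gene was the same with TMM-scaled CPM, an alternative chosen after seeing the data.

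Against the 5 Brca1-deficient luminal mice, no gene of the 10 passed edgeR's quasi-likelihood test (adjusted p under 0.05 over 12978 genes), which 0.609% of genes did. Elf5, Stat5a and Stat5b had an unadjusted p under 0.05. Elf5 averaged 26.7 ± 32.4 CPM in tumors (SD, n = 4) against 507 ± 429 CPM (SD, n = 5), a log2 difference of -4.40 ± 1.55 (SE, edgeR adjusted p = 0.232). DESeq2 called Elf5 alone of the 10 (adjusted p = 0.0187) and 9.39% of genes, and limma on the mean over cells of log2(CPM + 1) called Elf5 (adjusted p = 0.0288) and 4.43% of genes. The value depended on the stage of the luminal mice: it was -5.01 against the 3 pregnant mice and -2.16 against the 2 virgin mice, with edgeR adjusted p = 0.219 and 0.698. Without BrT1 it was -3.99 (adjusted p = 0.143).

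Stat5a differed by -1.47 ± 0.50 and Stat5b by -1.40 ± 0.59 on the log2 scale (edgeR adjusted p = 0.214 and 0.316). Stat5a averaged 41.8 ± 32.2 CPM in tumors against 104.7 ± 22.97 CPM, and Stat5b 12.3 ± 2.22 against 29.9 ± 15.3 CPM (SD, n = 4 and 5). Against virgin mice alone the Stat5b difference was -0.49, and against pregnant mice alone -1.81. Sox9 had a difference of 1.09 ± 0.51 (adjusted p = 0.382), which was 0.44 without BrT1. Ehf (-1.43 ± 1.36), Kit (-1.30 ± 1.07), Gata3 (-0.79 ± 0.69), Cd14 (-0.43 ± 0.71), Sox10 (-0.25 ± 0.47) and Aldh1a3 (1.00 ± 0.67) had edgeR adjusted p of 0.556 to 0.869. Without BrT1, Ehf was at -1.02, Kit at -0.89, Gata3 at -0.49, Cd14 at -0.06 and Sox10 at 0.05. Without BrT2, Kit was at -2.52, Gata3 at -0.43 and Aldh1a3 at 0.53.

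Only the chip SC6 held tumor and luminal cells together, Br53T2 and pBrL-2, 1 mouse each and without a test. There Elf5 differed by -3.45 on the log2(CPM + 1) scale, at 72.96 CPM in Br53T2 against 808 in pBrL-2, and Ehf differed by -1.39, Kit by -1.80 and Stat5b by -1.24. Gata3 differed by -0.03 and Stat5a by -0.25, while Sox9 differed by 2.01 and Aldh1a3 by 2.34.

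Of 12 genes of the Stat5 response, milk proteins and the feedback inhibitors of the Cish and Socs family, 9 were lower and 3 higher in tumors, 11 had an unadjusted p under 0.05 (1788 of all 12978 genes had one) and 1 passed, Glycam1, a milk mucin. Glycam1 fell from 2717 to 5044 CPM in the 3 pregnant Brca1-deficient mice and 5.96 to 15.5 in the 2 virgin ones to 0 to 0.0881 CPM in tumors (edgeR adjusted p = 0.0333). Leaving out any of the 4 tumors or of the 3 pregnant mice ended that call (adjusted p of 0.0621 to 0.0735). The median log2 difference of the list was -4.41 beside 0.06 over all genes. The 9 lower genes were Cish and 8 milk genes. The 3 higher ones, named after their values were seen, were Socs1 (6.34), Socs2 (0.032) and Socs3 (3.09), and none of them passed (edgeR adjusted p = 0.273, 0.990 and 0.203). Cav1, a caveolar protein that restrains prolactin signaling, was the only gene of 14 in the alveolar pathway list to pass. It rose from 11.9 ± 9.81 CPM (SD, n = 5) to 383 ± 392 CPM (SD, n = 4), a log2 difference of 4.87 ± 0.87 (edgeR adjusted p = 0.0401), and was highest in BrT1, at 949 CPM, the tumor with the most fibroblast marker reads; without BrT1 the difference was 3.97 ± 0.76 (adjusted p = 0.0717). The call was also lost without BrT2, vBr53L, pBrL-1, pBrL-2 or pBr53L (adjusted p of 0.0649 to 0.101). None of the 13 tested genes of the progenitor-associated list passed (lowest adjusted p = 0.158, Lif, followed by Kitl, the Kit ligand, at 0.247). None of 16 other ETS factors passed, Etv6 coming closest with a log2 difference of -1.52 ± 0.32 and Etv5 next with 3.71 ± 0.84 (adjusted p = 0.0622 and 0.0695). None of 9 other GATA, SOX and Tfap2 factors did (lowest adjusted p = 0.423), nor any of 10 hormone-sensing genes (0.582).

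Pregnancy was asked about in the 7 luminal mice, with genotype in the fit. Fibroblast markers summed to 176 to 712 CPM in virgin and 0.117 to 25.4 CPM in pregnant mice, ranges that do not overlap. Nearly all of the virgin sums was Dcn alone, at 711, 579 and 176 CPM in vBrL, vBr53L and v53L. Basal markers summed to 0 to 108 CPM in virgin and 96.4 to 417 CPM in pregnant mice, ranges that do overlap. The part of these markers in the results was not tested. No gene of the 10 passed in edgeR, and 0.0159% of 12615 genes did. Elf5 and Ehf had an unadjusted p under 0.05. Elf5 averaged 616 ± 406 CPM in pregnant mice (SD, n = 4) and 70.9 ± 87.3 in virgin mice (SD, n = 3), a log2 difference of 3.76 ± 0.72 (edgeR adjusted p = 0.216). DESeq2 called Elf5 (adjusted p = 2.78e-06) along with 9.09% of genes. limma on cell means called Elf5 and Ehf (adjusted p = 9.12e-05 and 0.00917) along with 4.6% of genes, and edgeR without its low-count filter called both and 1.99% of genes. Elf5 was higher in the pregnant mouse of each genotype, by 1.42 on the log2(CPM + 1) scale on chip SC7 (pBr53L and vBr53L) and by 4.30 on chip SC9 (p53L and v53L).

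Ehf averaged 930 ± 171 CPM in pregnant (SD, n = 4) and 401 ± 309 CPM in virgin mice (SD, n = 3), a difference of 1.37 ± 0.40 (edgeR adjusted p = 0.407), and within chips it differed by 1.39 and 2.48. Stat5b differed by 1.37 ± 0.62 (adjusted p = 0.541), by 2.23 on SC7 and 1.04 on SC9. Stat5a differed by -0.42 ± 0.33 (adjusted p = 0.750), and by 0.12 with limma on cell means. Cd14 had -0.74 ± 0.33 and Sox9 -0.54 ± 0.26 (adjusted p = 0.540 and 0.570), and within the chips SC7 and SC9 the differences were -1.56 and -0.66 for Cd14 and -0.95 and -0.55 for Sox9. Kit, Aldh1a3, Gata3 and Sox10 had edgeR adjusted p of 0.794 to 0.953. The signs of Aldh1a3 and Sox10 differed between the chips, at -1.59 and 1.83 for Aldh1a3 and -0.68 and 1.07 for Sox10.

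Among the fixed lists none had a gene that passed for pregnancy, but 7 of 11 Stat5 response genes and 7 of 10 hormone-sensing genes had an unadjusted p under 0.05, as had 1229 of all 12615 genes. The Stat5 response genes had a median difference of 2.22 and the hormone-sensing genes of -4.03, beside 0.12 over all genes. Csn2, beta-casein, came closest to the threshold in the former (2.22 ± 0.29, adjusted p = 0.0983) and Tbx3 and Areg in the latter (-4.04 ± 0.62 and -4.84 ± 0.76, both 0.139). Prlr, the prolactin receptor, was lower in the pregnant mice (161.6 to 221 CPM) than in each virgin mouse (525, 1245 and 3713 CPM), with a difference of -2.82 ± 0.42 (edgeR adjusted p = 0.139).

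Brca1-deficient luminal mice were compared with the 2 mice of genotype 53, which share chip SC9 with no other mouse, so that genotype and chip cannot be told apart. The compared mice also differed in Trp53, since the 53 mice carried its floxed allele and vBrL, pBrL-1 and pBrL-2, of genotype Br, did not. No gene of the 10 passed, and 0% of 13709 genes did, with 818 at an unadjusted p under 0.05. Elf5 had a log2 difference of 2.99 ± 0.73 (edgeR adjusted p = 0.744, unadjusted 0.00259), with stage in the fit. Within each stage every Brca1-deficient mouse lay above the 53 mouse, 36.7 and 170.2 against 5.90 CPM in virgin and 456 to 1063 against 135 CPM in pregnant mice. DESeq2 called Elf5 (adjusted p = 0.00164) along with 6.16% of genes, edgeR without the filter called it (adjusted p = 0.0449) along with 0.0543% of genes, and limma on cell means called neither it nor any other gene, with 1589 at an unadjusted p under 0.05. Without p53L, edgeR called 127 genes, none of the 10 among them. Cd14 had -1.16 ± 0.40 (edgeR adjusted p = 0.778, unadjusted 0.0186), with 1045 CPM in v53L and 661 in p53L. Ehf (0.96 ± 0.45), Sox10 (0.75 ± 0.46), Aldh1a3 (1.58 ± 1.04), Stat5b (0.81 ± 0.67), Kit (0.50 ± 0.34), Gata3 (-0.43 ± 0.28), Sox9 (-0.43 ± 0.31) and Stat5a (-0.0027 ± 0.39) had adjusted p of 0.778 to 0.999. None of the fixed lists had a gene that passed.

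**Figure D3:**
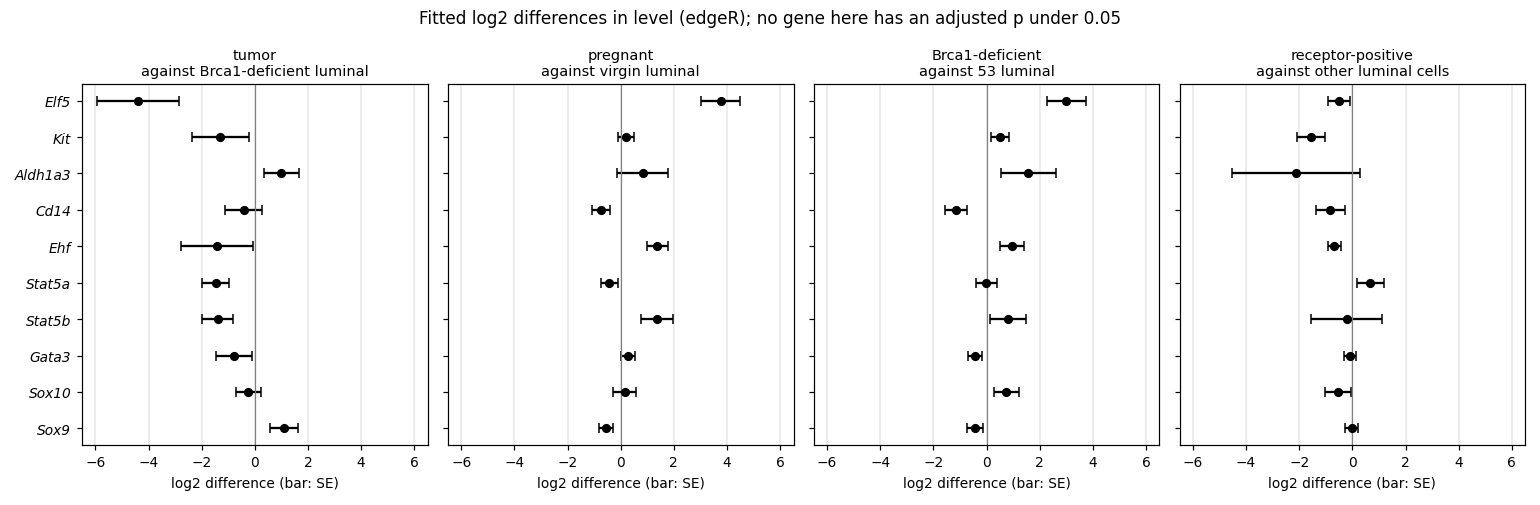
Fitted log2 difference of each gene in the 4 comparisons with its standard error from edgeR. Elf5 had the largest difference of the 10 genes in the first 3 comparisons (-4.40, 3.76 and 2.99), and no point passed an adjusted p of 0.05.

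Luminal cells were then divided within each mouse, since hormone-receptor-positive cells and progenitors are separate luminal types. A cell was called receptor-positive where at least 2 of Esr1, Pgr and Prlr reached 10 CPM. This gave 62.5% of cells in v53L, 35.9% in vBr53L, 31.4% in vBrL, 21.1% in pBrL-2, 15.1% in pBr53L, 12.7% in pBrL-1 and 5.56% in p53L, which was left out with 2 such cells. Receptor-positive cells had more genes detected than the others in each of the 6 mice used, 4068 against 2879 in v53L, for instance, and the part of this in the results was not tested. The rule used receptor reads alone. Over all cells, the hormone-sensing genes Cited1 and Foxa1 were at 0 and 0.0173 CPM in pBrL-1. They were at 0.286 and 0 CPM in pBrL-2 and at 18.6 and 2.17 CPM in pBr53L. Others of that list were read there, such as Wnt4 in pBrL-1 (33.3 CPM) and Calca in pBrL-2 (80.2 CPM). Whether the positive cells of the pregnant mice were hormone-sensing cells was not tested.

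Kit was lower in the receptor-positive cells of 5 of 6 mice. It was at 23.3 against 215 CPM in v53L, 154 against 207 in vBrL, 48.2 against 153 in pBrL-1, 47.3 against 276 in pBrL-2 and 48.1 against 176 in pBr53L, and at 147 against 102 CPM in vBr53L. The log2 difference was -1.55 ± 0.53 (edgeR adjusted p = 0.998, unadjusted 0.0166). Ehf was lower in 5 of 6 mice as well, with 317 against 918 CPM in vBrL and 131 against 121 CPM in v53L at the ends, and a difference of -0.68 ± 0.24 (edgeR adjusted p = 0.998, unadjusted 0.0174). No gene of the 10 passed, and 0.00941% of 10629 genes did, leaving out the 3 receptor genes, which defined the classes. DESeq2 called none of the 10 and 4.28% of genes, a share that includes the 3 receptor genes.

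The sign of Cd14 varied. In the 3 virgin mice it was lower in receptor-positive cells, 259 against 2440 CPM in v53L, 480 against 1214 in vBr53L and 150.4 against 407 in vBrL. In the pregnant mice it was 431 against 315 CPM in pBrL-1, 239 against 197 in pBrL-2 and 308 against 319 in pBr53L. Over all 6 mice the difference was -0.83 ± 0.55 (edgeR adjusted p = 0.998), and fits on virgin and on pregnant mice alone, chosen after seeing the data, gave -2.16 and 0.36 (adjusted p = 0.667 and 1.000). The difference between stages was not tested. Without v53L the difference of Cd14 was -0.35. Elf5 was lower in the positive cells of 3 of 6 mice, with 3.37 against 10.4 CPM in v53L, 13.3 against 46.98 in vBrL and 643 against 861 in pBrL-2. It was at 173 against 169 CPM in vBr53L, 1219.9 against 1039 in pBrL-1 and 612 against 424 in pBr53L, and the fitted difference was -0.50 ± 0.41. In the thinned cells Elf5 was read in 9 of 9, 7 of 8 and 7 of 8 receptor-positive cells of pBrL-1, pBrL-2 and pBr53L, and in 1 of 25 in v53L.

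Gata3 and Sox9 had the smallest fitted differences, -0.09 ± 0.24 and -0.02 ± 0.25 on the log2 scale, although Gata3 was at 223 against 389 CPM in vBr53L and Sox9 at 141 against 322 in pBr53L. Gata3 was read in 100.0% of receptor-positive cells in 5 of 6 mice, and in 92.9% in vBr53L. Stat5a was at 211 against 14.03 CPM in v53L, 82.8 against 86.7 in vBr53L and 114 against 142 in vBrL. In the pregnant mice Stat5a was at 113 against 124 CPM in pBrL-1, 127 against 94.4 in pBrL-2 and 131 against 69.9 in pBr53L. Its difference of 0.67 ± 0.51 was 0.22 without v53L. Sox10 was at 13.3 against 66.2 CPM in v53L and differed by -0.54 ± 0.48 overall. Aldh1a3 (-2.11 ± 2.41) and Stat5b (-0.22 ± 1.35) had no common sign among mice. Of the lists, all 9 hormone-sensing genes tested, a list that shares Esr1 and Pgr with the class rule, had higher levels in the positive class, the lowest edgeR adjusted p being that of Cited1 (0.0507), and none of the 14 progenitor-associated genes passed (12 lower, median log2 difference -1.38, beside a median of -0.12 over all genes).

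**Figure D4:**
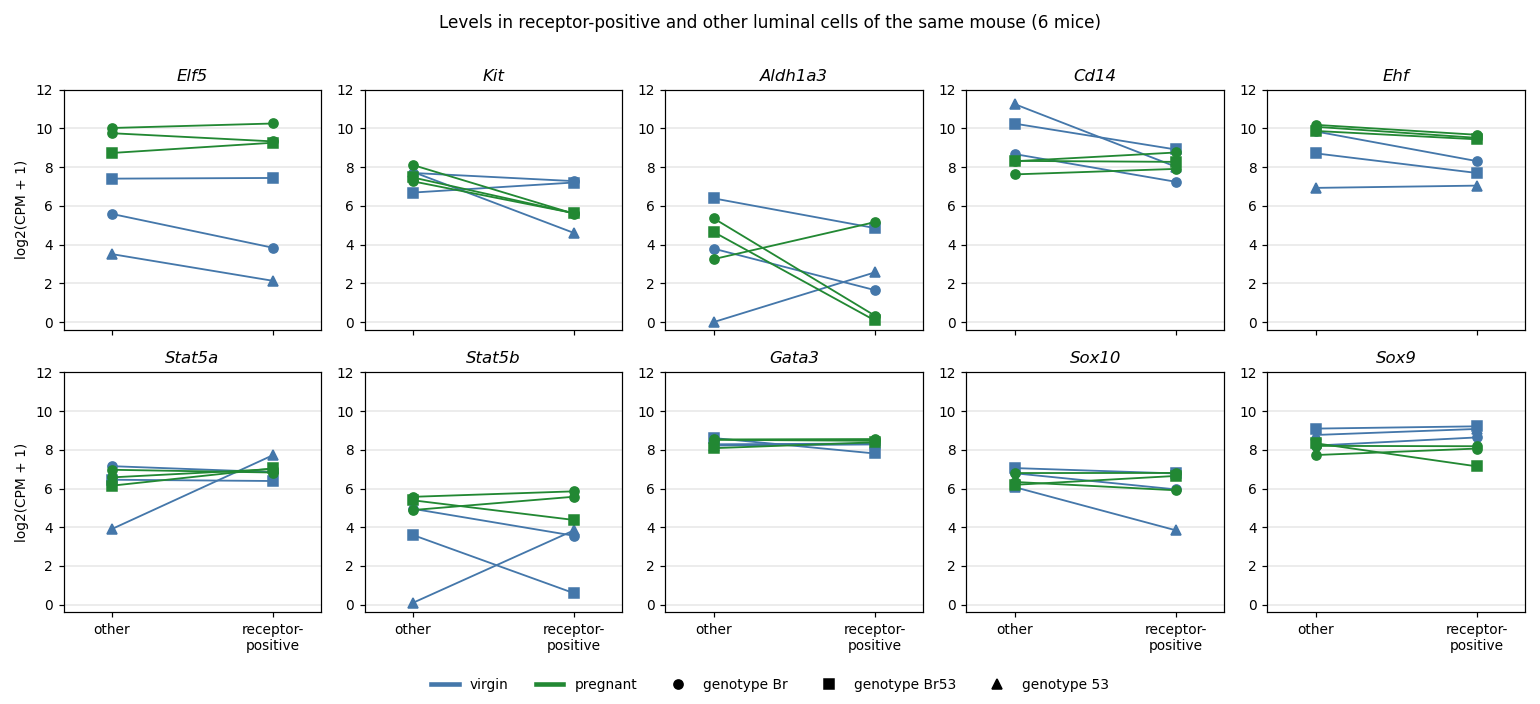
Levels, as log2(CPM + 1), in receptor-positive and other luminal cells of the same mouse, joined by a line for each of 6 mice. Kit and Ehf lines fall in 5 of 6 mice, Cd14 lines fall in the 3 virgin mice and run nearly flat in the pregnant ones, and Gata3 lines are near flat except in vBr53L.

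Within tumors the genes were not spread alike over cells. In Br53T2 several were read more often in the cells that held Elf5: of the 10 cells with an Elf5 read, 8 held Kit, 9 Cd14, 10 Ehf and 7 Sox10, against 5, 9, 19 and 10 of the 41 cells without. Median Elf5 over all cells of Br53T2 was 0 CPM, and it was 175 CPM among the cells with any read. Stat5b was read in 6 of these 10 cells and 8 of the 41, and Aldh1a3 in 6 and 11. Other pairs did not all go together, since Sox10 was read in 9 of the 29 cells with Ehf and 8 of the 22 without, and in 38.9% of the 18 cells with Cd14 and 30.3% of the 33 without. Stat5a, Gata3 and Sox9 were read in similar shares of both sets of cells, 6 of 10 against 56.1%, 10 of 10 against 87.8% and 10 of 10 against 92.7%. Basal markers summed to 5364 CPM in Br53T2, against 20.96 to 282 in the other tumors, and the part of this in the split was not tested.

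In Br53T1 Kit was read in 41.2% of the 17 cells with an Elf5 read and in 30.8% of the 13 without, Cd14 in 70.6% and 76.9%, Stat5a in 47.1% and 61.5%, and Ehf and Gata3 in every cell. In BrT2 the 14 cells with an Elf5 read all held Cd14 and Ehf, read in 73.9% and 69.6% of the 23 others, while Kit was read in 71.4% and 60.9%. In the virgin mouse v53L, of its 8 cells with an Elf5 read 6 held Kit, 7 Cd14 and 5 Sox10, against 9, 16 and 8 of the 32 others, whereas Stat5a (2 of 8 against 22 of 32) and Stat5b (0 of 8 against 7 of 32) were read less often, and Ehf was read in 5 of the 8 and 16 of the 32. In vBrL, the 18 cells with an Elf5 read held Kit in 14, Cd14 in 15 and Sox10 in 14, against 9, 9 and 7 of the 17 others. In vBr53L, Kit was read in 12 of the 19 cells with an Elf5 read and 13 of the 20 others, Sox10 in 10 and 14, Aldh1a3 in 4 and 9, and Cd14 in 18 and 16. These shares describe cells of 1 mouse each and were not tested.

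**Figure D5:**
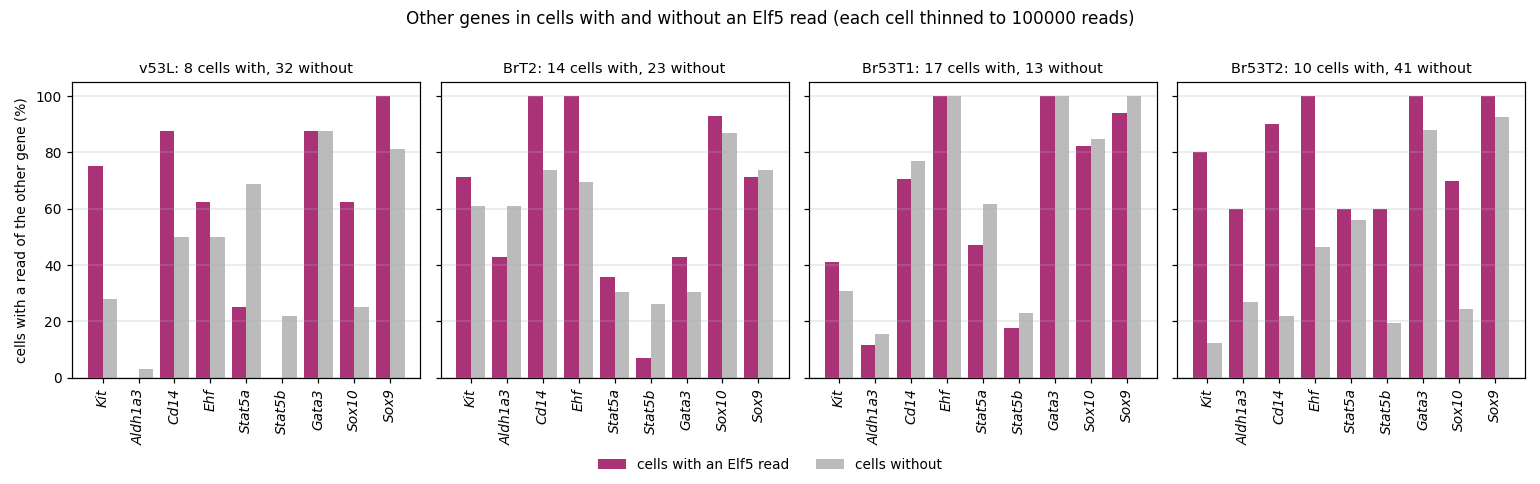
Percentage of cells with a read of each other gene, in cells with and without an Elf5 read, for v53L, BrT2, Br53T1 and Br53T2, each cell thinned to 100000 reads. In Br53T2, Kit, Cd14, Ehf, Sox10, Stat5b and Aldh1a3 were read more often in the 10 cells with Elf5. In Br53T1 the Kit bar was higher (41.2% against 30.8%) and the Stat5a bar lower (47.1% against 61.5%) in the cells with Elf5.

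Across the 11 mice, correlations among the 10 genes depended on BrT1, and r is given as a description with no test, the libraries being shared. Kit and Ehf had the highest Pearson r of log2(CPM + 1), 0.93, which was 0.38 over the 10 mice without BrT1, an alternative chosen after seeing the data. Kit and Sox9 had the lowest, -0.85, and -0.61 without BrT1. Elf5 had 0.79 and 0.77 with Ehf and 0.73 and 0.71 with Stat5b, but 0.69 and 0.37 with Kit, 0.64 and 0.34 with Stat5a and 0.51 and 0.19 with Sox10. Ehf and Stat5b had 0.57, and 0.87 without BrT1. Among the pairs that changed sign were Cd14 with Ehf (0.58 to -0.59), Kit (0.68 to -0.08) and Elf5 (0.21 to -0.50), and Stat5a with Sox10 (0.16 to -0.55), and Ehf with Stat5a went from 0.69 to 0.02. Aldh1a3 and Sox10 had 0.65 and 0.71. Of the 8886 genes whose mean reached 10 CPM, the pattern most like that of Kit was found in Amt, Ceacam1 and Erbb3 (r = 0.97 for each, and 0.72 to 0.76 without BrT1). For Ehf these were Esrp1 (0.98), an epithelial splicing regulator, Tfap2c (0.96) and Rnf7 (0.96), at 0.73, 0.67 and 0.58 without BrT1. Elf5 was most like Trp53 (0.94), which is itself floxed in 6 of the mice, Ccdc6 (0.93) and Ttpa (0.92). Cd14 was most like Gm9861 (0.89), Lcn2 (0.87), which encodes lipocalin 2, and Mkrn1 (0.87). Stat5a was most like Rapgef5 (0.96) and Cmtm6 (0.95), and Stat5b had r = 0.95 with Acad9 and 0.90 with Fbxw4. Gata3 was most like Rpp21 (0.97), Pqlc1 (0.95) and Nabp1 (0.95), and Aldh1a3 like Trib3 (0.92), Ctgf (0.90) and Ddx47 (0.88). Sox10 was most like Gm7694 (0.95), Slc35a3 (0.93) and Klf7 (0.92), and Sox9 like Ciao2b (0.93), S100a10 (0.92) and Ctsl (0.92).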

How the data were processed

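Read counts per gene of single cells (Fluidigm C1, SMARTer Ultra Low RNA Kit) were deposited by the authors as raw counts, with no normalization. Per the labels and the study's methods, reads were trimmed with sickle and Trim Galore 0.4.1, aligned to mm10 with STAR 2.5.3a and counted with Subread 1.5.3. The annotation, strand setting and handling of reads with several alignments are not given in the sources used here, and the table lists 0 mitochondrial genes.

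Each mouse was 1 replicate: its cells' counts were added up and given as CPM. The source label names groups, and the cells of pBrL were split by chip (SC5 and SC6) and taken as 2 mice. Differences were tested with edgeR 4.0.16 (quasi-likelihood, TMM, filterByExpr) with Benjamini-Hochberg adjustment over all genes tested, with DESeq2 1.42.0 and limma 3.58.1 as alternatives, in R 4.3.3. The script was tested on simulated data with known changes. Detection was given after thinning each cell to 100000 reads (0 cells were shallower), with exact binomial intervals. Other alternatives were size factors, no low-count filter, other luminal arms, chip as a block, other class rules and leaving out each mouse. Besides the 10 genes, named genes are those of fixed lists (progenitor-associated, alveolar pathway, Stat5 response, ETS, GATA and SOX, hormone-sensing, cell type markers) that passed (at most 4 a list), or else up to 2 with the lowest adjusted p, and marker genes where a result turned on them. The members and lists were chosen with earlier results of these data known. Fcer1a and Dct had no row. Positions came from GENCODE vM21 on the same build. Of the 3 genes most like each of the 10 in pattern over the mice, some are not reported here.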

Additional observations from a re-analysis of the deposited data

Results flagged for a closer look

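Among the 4 tumors, BrT1 was the lowest for Ehf and for Stat5b, and its gap to the next tumor was wide relative to their range. Its Ehf level was 0 CPM, and on the log2(CPM + 1) scale the gap to the next tumor, Br53T2 at 8.58, was 0.9481 of the whole range of the tumors. Its Stat5b level was 9.04 CPM, or 3.33 on that scale, and the gap to Br53T1 at 3.80 was 0.8299 of the range, which for Stat5b was narrow, 9.04 to 13.9 CPM. Dixon's test at the 95% level was applied to 40 groups of 4 to 7 mice, of which chance alone would mark about 2, the number found.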

How the results depend on the processing

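Of 590 differences recomputed under an alternative, 546 kept their direction and their side of the threshold, 10 passed it where the edgeR fit did not, and 34 changed sign; the causes were not tested. Of the 10 genes, DESeq2 called 1 for tumors, 1 for pregnancy and 1 for Brca1 deficiency (Elf5 each time), limma on cell means called 1 for tumors and 2 for pregnancy, and edgeR without a low-count filter called 2 for pregnancy and 1 for Brca1 deficiency. Leaving out each mouse gave 0 to 1 called for pregnancy (Elf5, without vBr53L).

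Sign changes for tumors were Cd14 against the pregnant mice (0.15; -1.13 to 0.0846 with a mouse left out) and Sox10 (-0.78 to 0.0513 with a mouse left out). For pregnancy they were Aldh1a3 with limma (-0.28) and with no covariate (-0.23), Stat5a with limma (0.12) and Sox10 with a mouse left out (-0.30 to 0.47). For Brca1 deficiency they were Stat5a with library size alone (0.16), limma (0.37), no filter (0.0056) and a mouse left out (-0.47 to 0.47), and Sox9 with limma (0.0395). Between receptor classes, with no mouse block Elf5 was at 0.21 and Stat5b at 0.0061. In pregnant mice alone, an alternative chosen after seeing the data, Elf5 was at 0.25, Cd14 at 0.36, Stat5b at 0.13, Gata3 at 0.22 and Sox10 at 0.14, and in virgin mice alone Sox9 was at 0.0942. Stat5b was at 1.38 where 1 receptor gene sufficed, and Gata3 at 0.0115 with receptors at 50 CPM. Sox9 was at 0.016 with DESeq2, 0.0093 with library size alone and 0.016 with RLE factors. With a mouse left out Stat5b ran from -0.96 to 0.50, Gata3 from -0.20 to 0.0499 and Sox9 from -0.12 to 0.18.

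Genes called for tumors numbered 79, and 11 (without pBrL-1) to 94 (without Br53T2) with a mouse left out, 213 against all 7 luminal mice and 0 against the virgin ones. For pregnancy, 2 genes were called, 42 with chip as a block and 17 with no covariate. Library size alone moved the median of all genes by 0.148 for tumors and 0.171 for Brca1 deficiency. Of 110 shares of cells, 51 lay outside the exact 95% binomial interval of the thinned share when all reads were used.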
